A study of Homo sapiens with 10 samples.

Results

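The genes described here encode death receptors of the tumour necrosis factor (TNF) receptor superfamily and the proteins that carry their signal. They were chosen by symbol from 9 listed genes: the receptors FAS, TNFRSF10A, TNFRSF10B, TNFRSF10C, TNFRSF10D and TNFRSF1A, the adaptor FADD, the protease CASP8 and its regulator CFLAR. Of these, 7 were found in both expression tables, among 11258 transcripts that the tables share, and FAS and TNFRSF10C were not analysed here. The cells were BJ fibroblasts, a human line immortalised by telomerase (hTERT), profiled in an untreated control and after 2, 4, 6 and 19 h of nutlin-3a, a compound that keeps MDM2 from binding p53 and so raises p53 activity. RNA-Seq gave the level of each transcript and Ribo-Seq, which sequences the mRNA fragments covered by ribosomes, gave its ribosome density, with 5 libraries per assay. The question was what p53 activation does to the amount of each transcript and to its translation.

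Death receptors are surface proteins with a cytoplasmic death domain. When the ligand TRAIL binds TNFRSF10A (DR4) or TNFRSF10B (DR5), or FAS ligand binds FAS, the receptor recruits the adaptor FADD, and FADD gathers procaspase-8, the product of CASP8, which activates itself and sets off apoptosis. TNFRSF10C and TNFRSF10D (DcR2) bind TRAIL without a working death domain and are known as decoy receptors. TNFRSF1A is the main TNF receptor, which signals to NF-kB as well as to death, and CFLAR (c-FLIP) resembles caspase-8 and restrains its activation. FAS and the TRAIL receptor genes are established p53 targets.

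Every group was 1 library, so no difference has a replicate check and no p-value was computed. Levels are given as FPKM, a read number per unit of transcript length and of sequencing depth, and the errors given are counting errors (SE) from the underlying reads, which could be recovered. Depth ranged from 23845559 to 27554290 reads in RNA-Seq and from 7744900 to 14460726 reads in Ribo-Seq, where the 19 h library was the shallowest. A change was called when a gene differed at least 2-fold from the control library of the same assay, which all 4 times share, and this was asked of 7015 genes that reached 5 FPKM in both assays, each in 1 library or more. The median change of tested genes was within 0.1 on the log2 scale except in ribosome density at 4 h (0.10) and 19 h (-0.19) and in translational efficiency at 4 h (0.18). TE, the translational efficiency, was taken as the log2 ratio of Ribo-Seq to RNA-Seq FPKM. As a check of p53 activity, CDKN1A, the cell-cycle inhibitor p21, went from 68.6 FPKM of RNA in the control to 1316 at 19 h, and MDM2 from 14.9 to 259. All 8 fibroblast markers were expressed. Of the epithelial markers, KRT8 and KRT18 were present, at 12.4 and 293 FPKM of RNA in the control, and CDH1, KRT19 and ESR1 did not exceed 0.08 FPKM, while VWF (endothelial) and PTPRC (blood cells) did not exceed 0.246 and CD14 (monocytes) did not exceed 1.095. In bulk samples, fewer cells with a transcript and less of it per cell cannot be told apart.

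The 3 TRAIL receptor genes rose, and the other 4 genes did not reach a 2-fold change in either assay at any time. In RNA, 0 of the 6 genes tested were called at 2 h, when 0.941% of all tested genes were. TNFRSF10A and TNFRSF10B, 2 of the 6, were called at 4 h (2.1% of tested genes). With TNFRSF10D, 3 of the 6 were called at 6 h (7.14%) and at 19 h (9.59%). Calls in ribosome density fell on the same genes at the same times, 0, 2, 3 and 3 of 6, where 2.25%, 3.11%, 13.3% and 21.1% of tested genes were called. Each of these member calls was a rise, and among all tested genes 65, 99, 123 and 175 rose in RNA and 149, 181, 369 and 436 in density at the 4 times. The study names these receptors as p53 targets induced in its nutlin-3a data, so their rise here is not independent evidence of that response. TNFRSF10A passed the 5 FPKM filter only through treated libraries, and so had to differ. CASP8 stayed below 5 FPKM in all Ribo-Seq libraries, was not among the tested genes, and is given by its values.

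**Figure D1:**
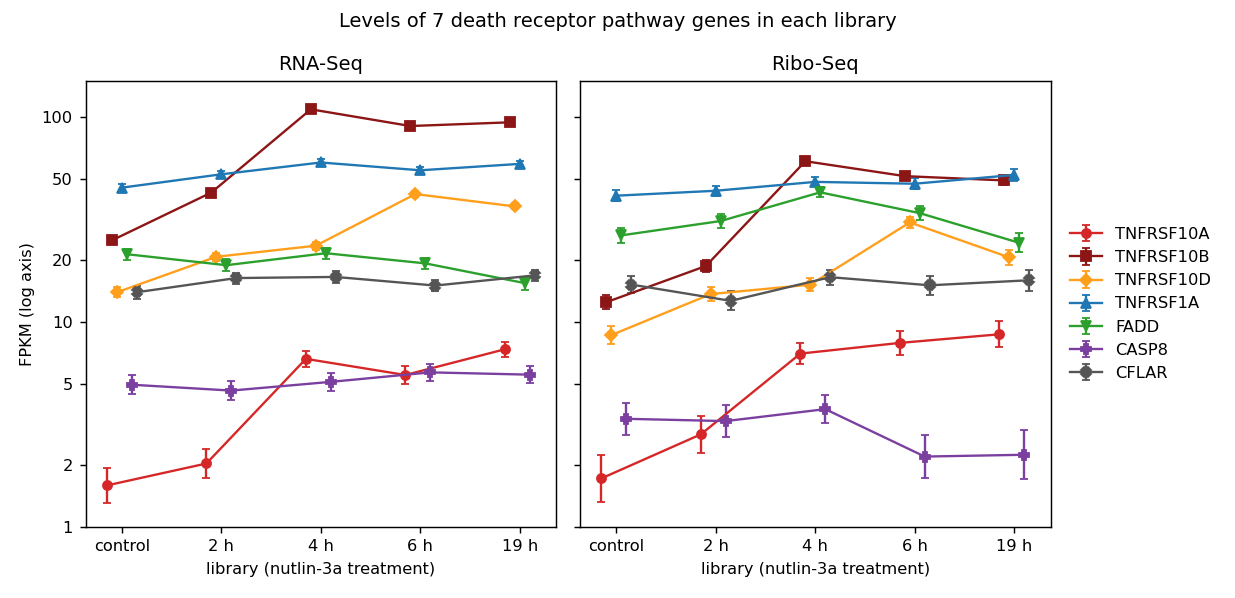
Levels of the 7 genes in each library (x axis: control and hours of nutlin-3a), RNA-Seq on the left and Ribo-Seq on the right, in FPKM on a log axis, with 95% counting intervals as bars. TNFRSF10B climbed from 25.0 to 109 FPKM of RNA between the control and 4 h, TNFRSF10D reached its highest level at 6 h, and TNFRSF1A, CFLAR and CASP8 ran nearly flat in RNA.

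TNFRSF10B (ENSG00000120889) is the TRAIL receptor with the highest RNA level. Its RNA stood at 25.0 FPKM in the control and 42.8, 109, 90.5 and 94.3 after 2, 4, 6 and 19 h. Ribosome density followed, with 12.5, 18.8, 60.9, 51.5 and 49.1 FPKM. All treated libraries lay above the control in both assays, and the 4 h libraries were the highest. In RNA the log2 change at 2, 4, 6 and 19 h was 0.78 (SE 0.036), 2.13 (SE 0.032), 1.85 (SE 0.032) and 1.91 (SE 0.032). In ribosome density it was 0.59 (SE 0.075), 2.29 (SE 0.063), 2.04 and 1.97 (SE 0.069). At 4 h, 0.228% of tested genes rose at least as much in RNA as TNFRSF10B, itself included. At 2 h, still below the 2-fold threshold, 1.44% did.

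TNFRSF10A (ENSG00000104689), the other TRAIL receptor with a death domain, had the lowest RNA level of the 7 genes in untreated cells. Its RNA was 1.59 FPKM in the control and 2.04, 6.61, 5.51 and 7.36 after 2, 4, 6 and 19 h, on 103 to 520 reads. In Ribo-Seq it measured 1.72, 2.83, 7.01, 7.90 and 8.71 FPKM, on 55 to 275 reads. The control and 2 h libraries were low and the later 3 were high in both assays. The log2 change in RNA was 0.36 (SE 0.18) at 2 h and lay between 1.79 and 2.21 in later libraries. Ribosome density changed by 0.71 (SE 0.25) at 2 h and by 2.02, 2.20 and 2.34 (SE 0.22) at 4, 6 and 19 h. These calls depend on the control level: with values below 5 FPKM set to 5, the log2 change of RNA at 4 h was 0.40 and TNFRSF10A was called at no time in either assay. With the study's cut-off, which slides with the level of a gene, TNFRSF10A passed at 4 h but not at 2, 6 or 19 h. In RNA its change was 1.79 against a cut-off of 2.30 at 6 h and 2.21 against 3.21 at 19 h. In density the miss was narrow, with 2.20 against 2.25 at 6 h and 2.337 against 2.338 at 19 h. At 4, 6 and 19 h, 6.3%, 6.33% and 6.59% of tested genes passed in RNA and 7.37%, 7.14% and 7.11% in density.

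TNFRSF10D (ENSG00000173530), the decoy receptor, reached a 2-fold change later. Its RNA was 14.0 FPKM in the control and 20.8, 23.6, 42.1 and 36.6 after 2, 4, 6 and 19 h, and its ribosome density 8.63, 13.7, 15.2, 30.6 and 20.7 FPKM. The libraries of 2 and 4 h were close to each other, and those of 6 and 19 h stood above them in both assays. In RNA the log2 change at 2, 4, 6 and 19 h was 0.58 (SE 0.053), 0.76, 1.59 (SE 0.048) and 1.39. In ribosome density it was 0.67, 0.82, 1.83 (SE 0.088) and 1.26 (SE 0.097). The sliding cut-off was passed at 2, 4, 6 and 19 h in RNA, and at 4 and 6 h but not at 2 or 19 h in density. In RNA at 2 h, 4.12% of tested genes passed. There TNFRSF10D (0.58 against a cut-off of 0.48) and TNFRSF10B (0.78 against 0.30) passed, and TNFRSF10A (0.36 against 0.77) did not. Against the 2 h library the change at 19 h was 0.82 in RNA and 0.59 in density, short of 2-fold.

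The death receptor TNFRSF10B and the decoy TNFRSF10D were therefore compared step by step, which does not use the control after the first step. From 2 to 4 h the RNA of TNFRSF10B rose by 1.35 on the log2 scale and that of TNFRSF10D by 0.18, a difference of -1.17 (SE 0.052) for TNFRSF10D minus TNFRSF10B. From 4 to 6 h TNFRSF10D rose by 0.84 while TNFRSF10B changed by -0.27, a difference of 1.11 (SE 0.044). Ribo-Seq gave -1.55 (SE 0.096) and 1.25 (SE 0.078) for the same steps, so the order of the rises in these steps was shared by both assays. In the first step, from the control to 2 h, both genes rose. The difference there was -0.20 (SE 0.064) in RNA and 0.079 (SE 0.12) in density. After 6 h the density of TNFRSF10D came down by more than that of TNFRSF10B, with a difference of -0.50 (SE 0.089). The differences at 2 to 4 h and 4 to 6 h both involve the 4 h libraries, and a property of the 4 h libraries and the time itself cannot be told apart.

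The balance of the receptors moved accordingly. The summed RNA level of TNFRSF10A and TNFRSF10B was 1.91 times that of TNFRSF10D in the control (95% counting interval 1.78 to 2.04) and 2.16 times at 2 h. It was 4.91 times at 4 h (4.69 to 5.15), 2.28 times at 6 h and 2.77 times at 19 h. In ribosome density the ratio was 1.65, 1.58, 4.47, 1.94 and 2.80. The 4 h libraries stood apart from the other 4 in both assays, with a log2 change of the ratio of 1.37 (SE 0.062) in RNA and 1.44 (SE 0.11) in density. Together the 3 receptors came to 40.6 FPKM of RNA in the control, 65.7 at 2 h and 139, 138 and 138 at 4, 6 and 19 h. This sum was nearly level from 4 h on. In density it was 22.8, 35.3, 83.1, 90.0 and 78.4 FPKM. The share of the decoy in the RNA sum was 34.4% in the control, 16.9% at 4 h, 30.5% at 6 h and 26.5% at 19 h.

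**Figure D2:**
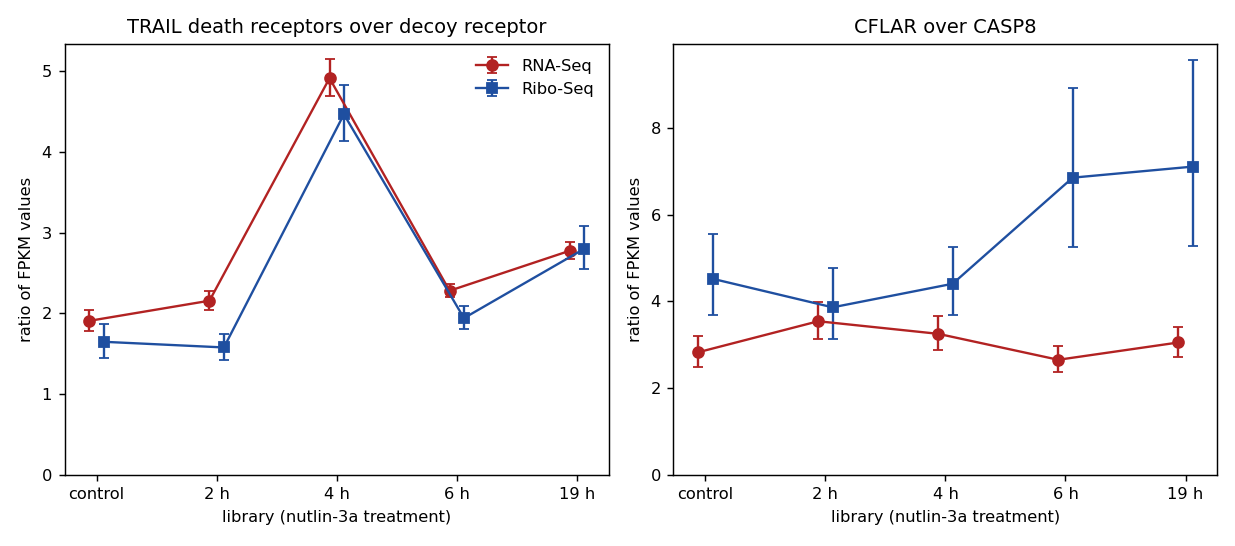
Ratios of FPKM values (y axis, from 0) in each library (x axis), RNA-Seq in red and Ribo-Seq in blue, with 95% counting intervals: TNFRSF10A plus TNFRSF10B over the decoy TNFRSF10D on the left, CFLAR over CASP8 on the right. The first ratio reached 4.91 in RNA and 4.47 in density at 4 h, and the second was higher at 6 and 19 h than before in Ribo-Seq alone.

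The ratio of the death receptors TNFRSF10A and TNFRSF10B to each other moved less. TNFRSF10B over TNFRSF10A was 15.7 in the RNA of the control and 21.0, 16.5, 16.4 and 12.8 after 2, 4, 6 and 19 h. Its log2 change in RNA ran from -0.29 (SE 0.16) at 19 h to 0.42 (SE 0.19) at 2 h, and in density from -0.36 (SE 0.23) at 19 h to 0.26 (SE 0.22) at 4 h. Likeness of pattern was measured over the 8 log2 changes (RNA and density at 4 times) as the root mean square difference, where smaller is more alike. The nearest of all tested genes to TNFRSF10A was TNFRSF10B, and the reverse, at 0.25, against a median over tested genes of 1.91 and 1.86. Next to TNFRSF10A came ZMAT3 (0.31) and C1orf183 (0.33), and next to TNFRSF10B came C12orf5 (0.28), which encodes the metabolic regulator TIGAR, and ZNF79 (0.30). Nearest to TNFRSF10D were ITPKC (0.24), NUPR1 (0.34) and ZNF385A (0.34), with a median of 1.27. TNFRSF10D itself was at rank 44 from TNFRSF10A (0.81) and at rank 41 from TNFRSF10B (0.79). Seen from TNFRSF10D, the same distances put TNFRSF10A at rank 456 and TNFRSF10B at rank 420. These changes share the control libraries, and the measure is a description. Counting errors of the TNFRSF10A changes in RNA and density ran from 0.16 to 0.25, so close ranks near TNFRSF10A are not told apart. In the RefSeq annotation (assembly GRCh38.p14) the TRAIL receptor genes are direct neighbours among protein-coding genes, in the order TNFRSF10B, TNFRSF10C, TNFRSF10D, TNFRSF10A. Only reads with a single hit were counted, so stretches shared by these related transcripts gave no reads.

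**Figure D3:**
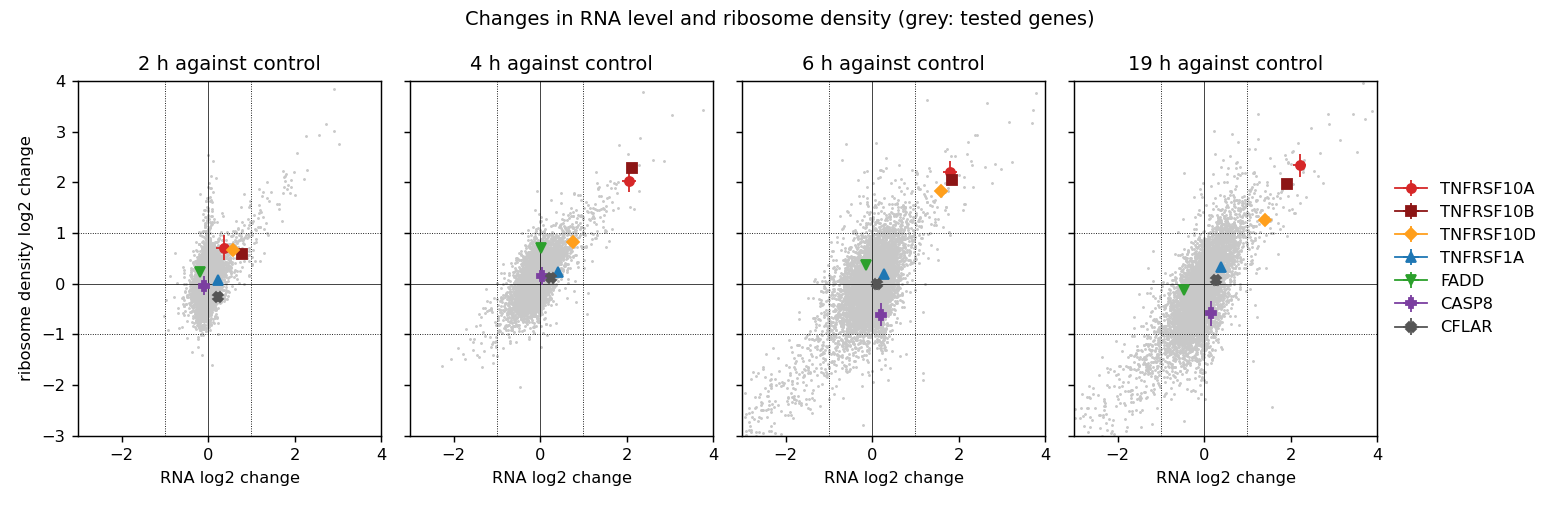
Log2 change against control in RNA (x axis) and in ribosome density (y axis) at each time, with counting SE as bars on the 7 genes, all tested genes in grey and dotted lines at a 2-fold change. TNFRSF10A and TNFRSF10B lay beyond both lines from 4 h and TNFRSF10D from 6 h. Over the 4 panels, 266 grey points fell outside the axes and are not drawn.

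TNFRSF1A (ENSG00000067182), the TNF receptor, had the highest RNA level of the 7 genes in untreated cells. Its RNA was 45.2 FPKM in the control and 52.6, 60.0, 55.0 and 59.1 after 2, 4, 6 and 19 h, with 41.3, 43.7, 48.3, 47.3 and 52.2 FPKM in Ribo-Seq. The control was the lowest library in both assays. The log2 change in RNA lay between 0.22 and 0.41 (SE 0.039) and in density between 0.080 and 0.34, short of a call throughout. TNFRSF10B over TNFRSF1A in RNA was 0.553 in the control, 1.82 at 4 h and 1.60 at 19 h. The order of the 2 receptors thus turned in RNA. In density the ratio was 0.302 in the control, 1.26 at 4 h and 1.09 at 6 h. At 19 h it was 0.940 (95% counting interval 0.866 to 1.02). Density is per length of the whole transcript, 4146 nt for TNFRSF10B and 2223 nt for TNFRSF1A. The density ratio is therefore read by its change between libraries, and not as an order of the 2 receptors.

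FADD (ENSG00000168040), the adaptor that links these receptors to caspase-8, was the tested member with the highest TE change. Its RNA was 21.4 FPKM in the control and 18.9, 21.7, 19.3 and 15.5 after 2, 4, 6 and 19 h, so that the 19 h library was the lowest (log2 change -0.47, SE 0.071). Its ribosome density was 26.5, 31.1, 42.9, 34.0 and 24.3 FPKM, highest at 4 h (log2 change 0.70, SE 0.074). TE was 0.31 in the control and 0.72, 0.99, 0.81 and 0.65 in the treated pairs, all above it. The TE change at 2, 4, 6 and 19 h was 0.41, 0.68 (SE 0.099), 0.51 and 0.35 (SE 0.12), all below 2-fold, and 0.50 at 4 h once centred on the median of tested genes. At 4 h, 5.17% of tested genes had a TE change as high, and at 6 and 19 h 16.7% and 19.7% did. All 4 changes rest on the same control pair.

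CASP8 (ENSG00000064012), the initiator caspase, had an RNA level of 4.94 FPKM in the control and of 4.62, 5.10, 5.67 and 5.53 in treated cells, within 0.20 (SE 0.10) of the control on the log2 scale. Ribosome density was 3.37 FPKM in the control and 3.28, 3.75, 2.20 and 2.25 after 2, 4, 6 and 19 h. The 3 earlier Ribo-Seq libraries thus lay above the later 2. Counts were low, with 116, 114, 159, 65 and 51 Ribo-Seq reads. TE fell into the same groups, at -0.55, -0.49 and -0.44 in the first 3 pairs and -1.37 and -1.30 in the last 2. The TE change was -0.81 (SE 0.25) at 6 h and -0.75 (SE 0.26) at 19 h, and from 4 to 6 h alone it was -0.92 (SE 0.24). A TE change as low was found for 5.39% of tested genes at 6 h and 9.84% at 19 h. CASP8 itself was not tested, and its control levels lay at percentile 2.65 of tested genes in RNA and 2.39 in density. These shares thus compare it mostly with genes of higher level. With values below 5 FPKM set to 5, its density was the same in all libraries. The fall in TE then shrank to -0.18 for 6 h and -0.15 for 19 h.

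CFLAR (ENSG00000003402), the regulator of caspase-8, stayed close to its control level. Its RNA was 14.0, 16.4, 16.6, 15.1 and 16.9 FPKM and its ribosome density 15.2, 12.7, 16.5, 15.1 and 16.0 FPKM. In RNA the control was the lowest library, and in Ribo-Seq the 2 h library was. The log2 change in RNA lay between 0.11 and 0.27 (SE 0.069) and in density between -0.26 (SE 0.11) and 0.12. TE was 0.12 in the control, -0.37 at 2 h and -0.0037, 0.0041 and -0.079 later, a change of -0.49 (SE 0.13) at 2 h, as low as in 3.38% of tested genes. CFLAR over CASP8 was 2.83, 3.54, 3.25, 2.65 and 3.05 in RNA and 4.52, 3.86, 4.41, 6.86 and 7.11 in density. The log2 change of the density ratio was 0.60 (SE 0.25) at 6 h and 0.65 (SE 0.27) at 19 h, each between 2 and 3 times its counting error. CFLAR and CASP8 lie near each other in the annotation, in the order CFLAR, CASP10, CASP8.

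**Figure D4:**
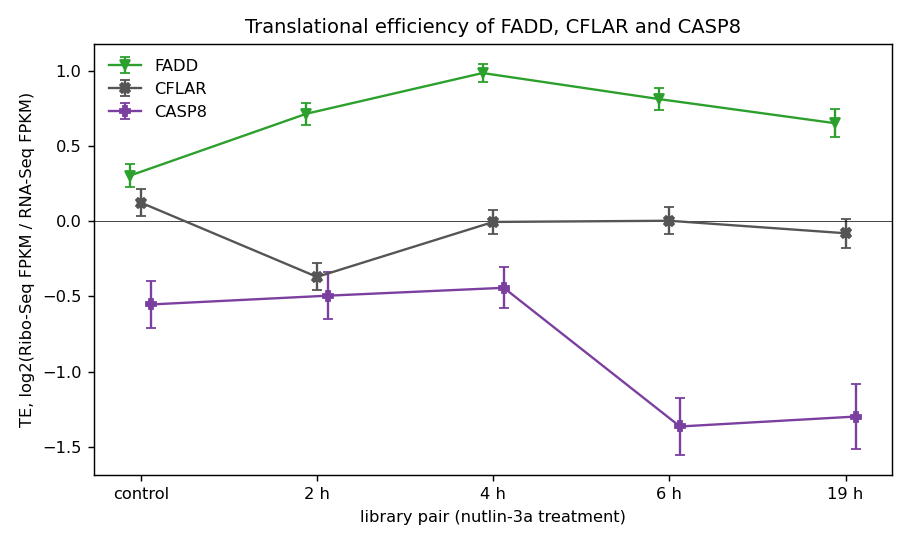
Translational efficiency, log2 of Ribo-Seq over RNA-Seq FPKM (y axis), of FADD, CFLAR and CASP8 in each library pair (x axis), with counting SE as bars. FADD was at 0.31 in the control and 0.65 to 0.99 in treated pairs, and CASP8 went from -0.44 at 4 h to -1.37 at 6 h.

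No tested member reached a 2-fold change of TE at 2, 4, 6 or 19 h, where 1.2%, 0.998%, 5.74% and 6.14% of tested genes did. For the 3 TRAIL receptors the TE change ran from -0.19 (TNFRSF10B at 2 h) to 0.41 (TNFRSF10A at 6 h, SE 0.27). Levels of TE are not compared between genes, because the values of both assays are per length of the whole transcript, and the share of it that is translated differs from gene to gene. The same limit holds for levels of density. Density ratios and sums of different genes are read by their change between libraries.

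The order of RNA levels changed with treatment. In the control it was TNFRSF1A, TNFRSF10B, FADD, CFLAR, TNFRSF10D, CASP8 and TNFRSF10A. CFLAR and TNFRSF10D did not differ beyond counting error there (log2 difference 0.0010, SE 0.067). At 19 h it was TNFRSF10B, TNFRSF1A, TNFRSF10D, CFLAR, FADD, TNFRSF10A and CASP8, with CFLAR and FADD within counting error of each other (0.13, SE 0.070). TNFRSF10B led from 4 h on, and at 6 h CASP8 and TNFRSF10A were within counting error (0.042, SE 0.098).

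Of 49 other genes of the pathway, 37 were in both tables and 27 were tested. In RNA, 0 rose and 0 fell at 2 h, 1 rose and 0 fell at 4 h, and 1 rose and 3 fell at both 6 and 19 h. Of all 7015 tested genes, 65, 99, 123 and 175 rose in RNA at the 4 times. The share of all tested genes that fell was 0.0143%, 0.684%, 5.39% and 7.1%. The median log2 change of the 27 was -0.038, -0.13, -0.035 and -0.20 at the 4 times, against -0.045, -0.074, -0.0024 and -0.067 over all tested genes. The riser was PIDD, a p53-induced death domain protein that activates caspase-2, with 5.32, 5.10, 12.7, 17.0 and 20.2 FPKM of RNA and 1.56, 1.69, 4.66, 9.60 and 8.18 FPKM in Ribo-Seq. In Ribo-Seq it passed the 5 FPKM filter only through the 6 and 19 h libraries, where it was high. CASP2, its partner caspase, went the other way, from 14.5 to 5.83 FPKM of RNA at 19 h. TRAF2, an adaptor of TNF receptor signalling, fell from 10.9 to 4.31 FPKM, and PARP1, a DNA repair enzyme, from 55.1 to 21.4 FPKM.

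In ribosome density, 0, 1, 2 and 2 of the 27 rose and 0, 1, 3 and 6 fell at the 4 times. Of all tested genes, 0.128%, 0.527%, 8.04% and 14.9% fell, and 2.12%, 2.58%, 5.26% and 6.22% rose. The risers among the 27 were PIDD from 4 h on and TRADD at 6 and 19 h. The 6 listed ligands were not analysed here. Of 3 other tested receptors and 5 tested inhibitors and ubiquitin enzymes, none was called in RNA or density. TRADD, the adaptor of TNFRSF1A, was higher in density at 6 h (1.08) and 19 h (1.17), with an RNA change of 0.60 and 0.55, and was named after its values were seen.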

How the data were processed

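BJ cells were profiled by RNA-Seq and Ribo-Seq, with 1 library for each time and assay. As the methods state, Bowtie was used by the authors to place reads on protein-coding transcripts, 1 isoform per gene (Ensembl release 65; the submitters' processing notes name hg19), and unique hits were kept. The deposited values are FPKM, computed by the authors. The assay of a table was read from its name. The methods describe Ribo-Seq levels over coding sequences, but 1 transcript length fitted both tables for 99.9% of shared transcripts, so reads outside the coding sequence may be part of them. The study reports a batch effect of sequencing runs and took controls from the run of each condition. Its paper describes nutlin-3a in BJ cells at 6 and 19 h, and does not place the 2 and 4 h libraries in a run. No run is given in the labels, and the part of runs in the changes was not tested. No per-sample column was left unused (0).

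Whole reads, transcript lengths and library totals were recovered from the spacing of FPKM values with Python 3.11.15 and NumPy 2.4.6: 98.54 to 100.0% of values per library came within 0.1 of a whole read. The recovery was tested on simulated data. PCR copies were not distinguishable, so the errors leave out all but counting. FPKM below 1 was set to 1. Changes are log2 ratios to the control. Alternatives were a floor of 5 FPKM, a pseudocount of 1 FPKM, the 2 h library as baseline, centring, no filter, a 1.5-fold threshold, a cut-off of 1.75 local SDs over 501 genes of like level and, chosen after seeing the data, removal of the trend over transcript length.

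The members and the lists were chosen with earlier results of these data known. The genes named are the members, CDKN1A and MDM2, genes of the pathway list called in RNA at 2 or more times, and the 3 genes nearest in pattern to each receptor called at 2 or more times. Some genes of the pathway list are not reported here.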

Additional observations from a re-analysis of the deposited data

Results flagged for a closer look

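The TE of TNFRSF10B changed in opposite directions at 2 times. Its log2 change was -0.1894 at 2 h (SE 0.083) and 0.1898 at 6 h (SE 0.074), each a little over 2 times its counting error and far below a 2-fold change. Each value comes from 1 library pair, both use the same control pair, and the difference between them was not tested. TE changes of tested genes rose with transcript length by 0.11 per doubling at 2 h and by 0.17 at 6 h, and with that trend removed the values were -0.33 and 0.060.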

How the results depend on the processing

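The member counts in RNA, density and TE were the same with a pseudocount, without the filter, with centring and with the length trend removed. With the 2 h library as baseline they were the same at 4 and 6 h, and at 19 h went from 3 to 2 in RNA and in density, without TNFRSF10D. Against that baseline, 1.77, 8.33 and 9.76% of all tested genes were called in RNA at 4, 6 and 19 h, and 3.48, 9.45 and 14.8% in density. The floor of 5 FPKM left 1 of the 2 calls at 4 h and 2 of the 3 calls at 6 and 19 h in both assays. With that floor, 1.64, 5.99 and 8.2% of all tested genes were called in RNA at 4, 6 and 19 h, and 2.0, 9.98 and 16.2% in density. The 1.5-fold threshold gave 1 in place of 0 at 2 h and 3 in place of 2 at 4 h in RNA, and 3 in place of 0 and 4 in place of 2 in density. The sliding cut-off moved the RNA counts at 2, 4, 6 and 19 h from 0, 2, 3 and 3 to 2, 3, 2 and 2, and those of density at 4, 6 and 19 h from 2, 3 and 3 to 4, 2 and 1. In TE at 4 h the 1.5-fold threshold and the sliding cut-off each gave 1, FADD, in place of 0. The floor of 5 FPKM lies above the control level of TNFRSF10A, which alone accounts for its effect on these counts. With 1.5-fold, 2.3, 7.08, 17.3 and 21.7% of all tested genes changed in RNA at the 4 times and 9.68, 13.7, 34.0 and 44.7% in density, and past the sliding cut-off 4.12 to 6.59% and 6.27 to 7.37%. In TE at 4 h 9.95% and 13.0% did. Centring moved the split of all tested genes called higher and lower from 436 and 1045 to 693 and 750 in density at 19 h, from 181 and 37 to 138 and 55 in density at 4 h, from 61 and 9 to 16 and 16 in TE at 4 h, and from 136 and 295 to 171 and 228 in TE at 19 h. The density change of FADD at 19 h was -0.12 and, centred, 0.071. No paired analysis was possible because each group holds 1 library. Depth limits CASP8 and TNFRSF10A in Ribo-Seq most.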
